A study of Mus musculus with 11 samples.

Results

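The genes described here are 10 members of the integrated stress response, *Atf4* and genes known to be activated downstream of it, followed in single mouse embryos with and without the zinc finger transcription factor PRDM10. They were found by symbol among 54146 gene records, and all 10 were present. They comprise 3 transcription factors (*Atf4*, *Atf3*, *Ddit3*), 4 genes of feedback and growth control (*Trib3*, *Chac1*, *Sesn2*, *Ppp1r15a*) and 3 enzymes of amino acid synthesis (*Asns*, *Psat1*, *Phgdh*). The embryos were C57BL/6 8-cell embryos at embryonic day 2.5, each sequenced on its own with the Smart-seq2 protocol. The 5 mutant embryos were *Prdm10*Δ/Δ, with exon 5 deleted on both alleles. The 6 control embryos were *Prdm10*+/+ or *Prdm10*Δ/+, and these 2 genotypes were not told apart by the labels. All came from natural matings between Δ/+ parents, whose deleted allele had been made with a Cre driven by the ACTB promoter, and they were sorted by detection of exon 5 in their own cDNA. Batch 1 held 3 control and 2 mutant embryos amplified with 16 cycles of PCR, and batch 2 held 3 control and 3 mutant embryos amplified with 13 cycles.

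In the integrated stress response, kinases that sense amino acid shortage, misfolded protein in the endoplasmic reticulum, haem shortage or viral RNA phosphorylate the α subunit of the initiation factor eIF2. General translation then slows, while translation of *Atf4* mRNA, which is held back by short upstream reading frames, increases. ATF4 protein activates genes for amino acid synthesis and transport, for charging of tRNA, and for factors that end the response or, when stress lasts, favour cell death. Because the control of ATF4 is mainly translational, its mRNA level is a weak measure of pathway activity and the levels of its target genes are the usual readout. The comparison of mutants with controls asked whether these readout genes differed in embryos in which *Eif3b*, a subunit of the initiation factor eIF3, was low.

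ATF4 binds with C/EBP partners to composite elements, here searched as TGATGNAA on both strands of RefSeq promoters (GRCm38.p6, 250 bases before to 50 after the start site). All 10 genes were in the promoter table, with 11 promoters, and 4 of these held a match, from *Atf3*, *Chac1*, *Trib3* and *Asns*. Of all 32851 promoters, 3.97% held one. The cAMP response element TGACGTCA, also searched on both strands, was found in the promoter of 1 of the 10 genes, *Ppp1r15a*, and in 1.79% of all promoters. The letters of each match are shown in capitals below, in the direction of the gene, so that a match on the opposite strand reads as its reverse complement. A match describes letters only, and a promoter without one lacks only these letters in this window.
*Atf3* (chr1:191183425-191183454, - strand): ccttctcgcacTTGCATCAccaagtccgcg
*Chac1* (chr2:119351038-119351067, + strand): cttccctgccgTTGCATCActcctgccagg
*Trib3* (chr2:152344028-152344057, - strand): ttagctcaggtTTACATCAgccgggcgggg
*Asns* (chr6:7693214-7693243, - strand): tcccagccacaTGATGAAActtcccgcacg
*Ppp1r15a* (chr7:45526262-45526291, - strand): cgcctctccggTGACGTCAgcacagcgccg

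The element began 110 bases upstream of the start site in *Atf3*, 193 bases upstream in *Chac1* and 23 bases upstream in *Asns*, and at base 15 after it in *Trib3*, all by the RefSeq start site. The *Trib3* record whose position is given below ends before these letters. In *Atf3* and *Asns* the letters lie inside the gene record whose position is given below, so they are upstream only of the RefSeq start site. These 4 genes, which carry the ATF4-type element near their start sites, had medians of 4.95 or less in TPM (a length-corrected level, each library scaled to the same sum) in these embryos, with *Trib3* close to *Ddit3*, which held no match. None of the 10 genes was in the study's list of genes bound by PRDM10. That list was made in mouse embryonic stem cells, and the study gives no binding data for embryos.

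Libraries held 3534735 to 8265840 estimated reads assigned to genes, and the ranges of the groups and of the batches overlapped. *Prdm10* itself lay at 11.1 to 24.8 TPM in controls and at 4.88 to 8.16 TPM in mutants, without overlap. Its normalised counts overlapped, at 124 to 381 in controls and 104 to 202 in mutants, and differed by a log2 fold change of -0.66 ± 0.26 (SE) and did not pass the test (DESeq2, adjusted p = 0.215). The effective length RSEM estimated for it was 2565 to 3357 bases in controls and 4348 to 5051 in mutants, and TPM is divided by that length. The tables hold no value for exon 5 itself. *Eif3b* was lower in mutants, at 407 ± 133 normalised counts (SD, n = 5) against 1076 ± 546 (SD, n = 6), a log2 fold change of -1.24 ± 0.20 (SE) with an adjusted p of 4.68e-07 (DESeq2). Of 10 markers of the 8-cell embryo, 8 were detected in every library, and of the 8 tested 3 were called between mutants and controls and 7 had an unadjusted p under 0.05, beside 1.45% and 11.9% of all genes. Those called were *Klf5* (log2 fold change 0.84 ± 0.14 SE, adjusted p = 1.07e-06), *Krt18* (1.85 ± 0.47, adjusted p = 0.0148) and *Klf17* (-1.10 ± 0.29, adjusted p = 0.021; DESeq2), and their part in the values below was not tested. In edgeR the adjusted p was 0.185 for *Krt18* and 0.194 for *Klf17*. Leaving out mutant replicate 5 or 3 ended the call of *Krt18* (adjusted p = 0.259 and 0.0587), and leaving out control replicate 1 or mutant replicate 2 or 5 ended that of *Klf17* (0.0707, 0.0948 and 0.104). Cumulus cell markers summed to at most 3.51 TPM in any library, with *Has2*, *Ptx3* and *Foxl2* at 0 throughout. Blood markers summed to at most 11.1 TPM, and oviduct markers to at most 33.6 TPM.

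The 10 genes spanned the range of expression in these embryos. *Psat1*, which makes phosphoserine for serine synthesis, had the highest median, at 607 TPM over the 11 embryos, and *Phgdh*, which catalyses the first step of the same pathway, followed at 450 TPM. *Psat1* was above *Phgdh* in 7 of 11 embryos, so their order was not fixed. *Atf4* came next with a median of 143 TPM, and its range did not touch that of either neighbour in the order. *Ppp1r15a* had a median of 33.1 TPM and *Sesn2* of 16.1 TPM, and the former was higher in 9 of 11 embryos. *Ddit3* (5.89 TPM) and *Trib3* (4.95 TPM) could not be ordered, since *Ddit3* was higher in 5 of 11 embryos. *Asns* had a median of 2.51 TPM, and the medians of *Atf3* and *Chac1* were 0. Averaged over embryos, *Psat1* exceeded 97.4% of the genes tested, *Phgdh* 97.0%, *Atf4* 90.2% and *Asns* 21.4%. The enzymes of serine synthesis were abundant in controls and mutants alike, whereas *Asns*, the third enzyme, was among the low genes.

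**Figure D1:**
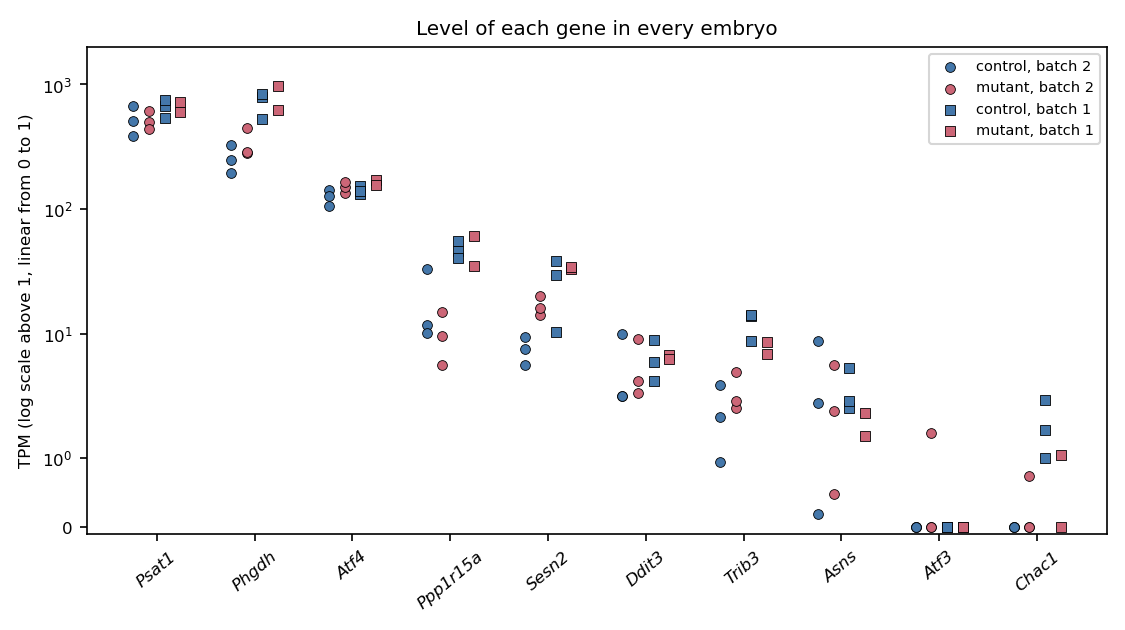
TPM of the 10 genes (vertical axis, logarithmic above 1 and linear from 0 to 1) in each of the 11 embryos, ordered by median. Blue marks controls and red mutants, circles batch 2 and squares batch 1; *Psat1*, *Phgdh* and *Atf4* lie at or above 106 TPM in every embryo, and *Atf3* is above 0 in 1 embryo.

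Mutant and control embryos were compared with a Wald test in DESeq2 with batch as a covariate, and a gene was called when its adjusted p was below 0.05 and its mean normalised count above 10. *Atf3* and *Chac1* stayed under that mean, which left 8 of the 10 genes tested. No member was called (0 of 8), beside 151 of 10448 genes tested, or 1.45%. By edgeR's quasi-likelihood test 0 of 8 were called as well, beside 0.324% of all genes, and at an unadjusted p under 0.05 each tool had 1 of 8, *Sesn2*. Such a p was found for 11.9% of all genes in DESeq2 and 9.44% in edgeR. Of the 8, 5 had a higher estimate in mutants, and their median log2 fold change was 0.13 against -0.001 for all genes. The median size of the change, regardless of direction, was 0.266 for the 8 genes and 0.266 for all genes. The precision differed between members. For *Atf4*, *Trib3*, *Psat1* and *Phgdh* (4 of 8) the 95% interval of the fold lay inside a 2-fold change in either direction, and for the other 4 it reached beyond 2-fold on one or both sides. The interval of *Trib3* holds for the batches combined, whose separate estimates had opposite signs (-0.69 in batch 1 alone, 0.63 in batch 2 alone). Since whole embryos were sequenced, fewer cells that express a gene and less RNA per cell cannot be told apart.

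**Figure D2:**
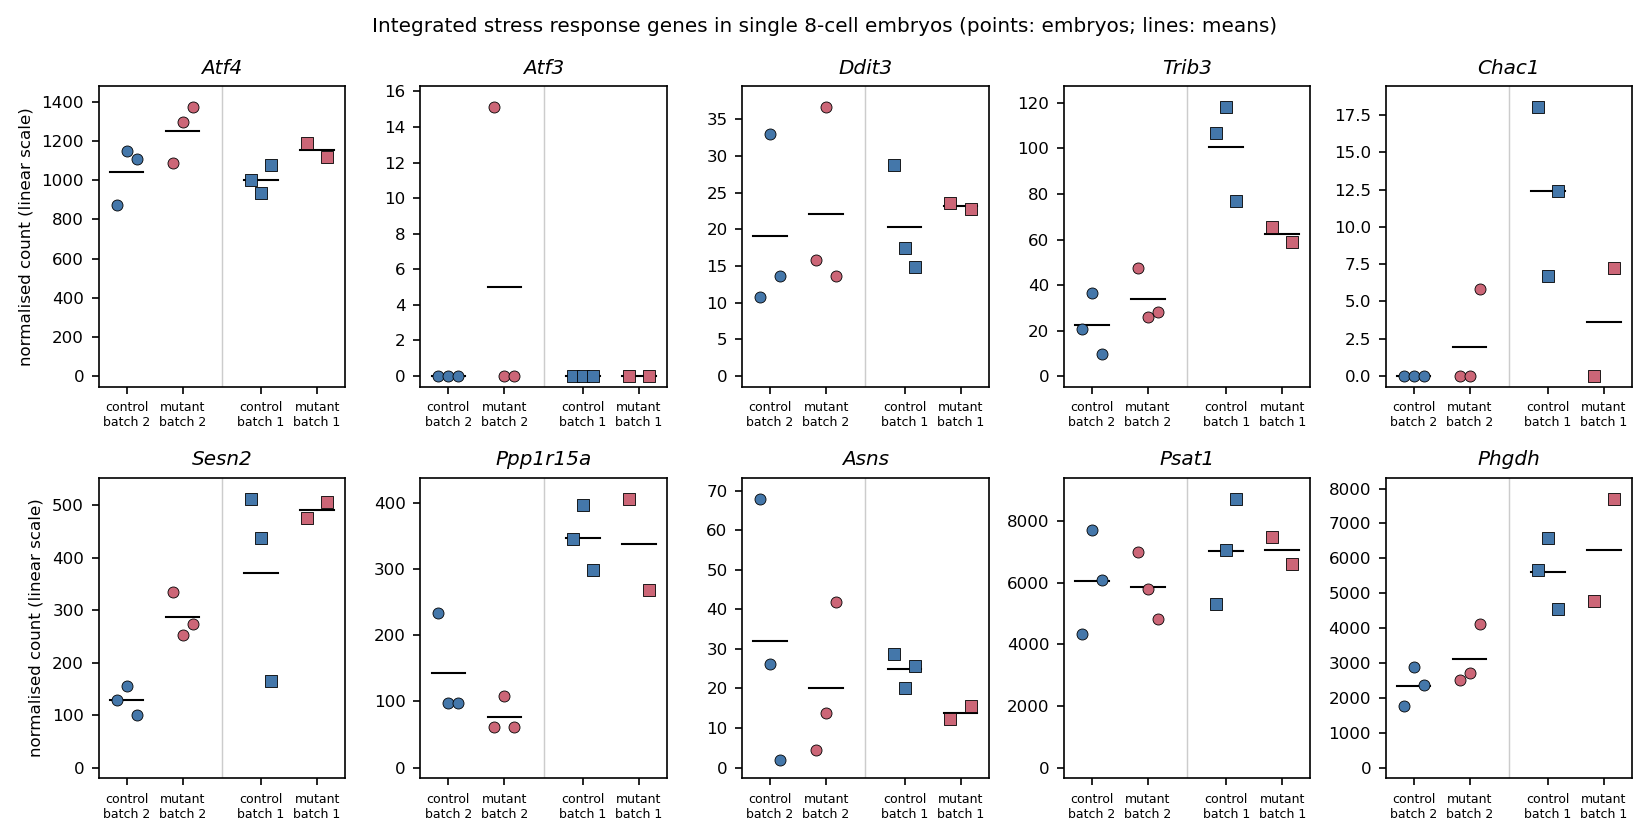
Normalised count of each of the 10 genes (vertical axis, linear, its own scale in each panel) in single embryos, by batch and group, with lines at the means. In *Sesn2* the 3 batch 2 mutants lie above the 3 batch 2 controls, while in *Trib3*, *Ppp1r15a* and *Phgdh* the batches stand apart.

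*Atf4* (ENSMUSG00000042406.8, chromosome 15 from 80255184 to 80257541, GRCm38), the transcription factor at the centre of the response, had 871, 1150 and 1107 normalised counts in the controls of batch 2 and 1086, 1297 and 1371 in the mutants. In batch 1 the controls had 1000, 933 and 1075 and the mutants 1190 and 1120. Thus 3 of 5 mutants lay above every control and none lay below, and the batch 1 groups did not overlap. Non-overlap in batch 1 was also seen for *Trib3* and *Asns*, 3 of 8 members in all, beside 23.6% of all genes tested. The log2 fold change of *Atf4* was 0.24 ± 0.14 (SE; adjusted p = 0.511, DESeq2), with a 95% interval of 0.981 to 1.42 in fold.

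*Ddit3*, which encodes CHOP, a factor linked to cell death under lasting stress, was scarce. It has 2 records in the annotation. That used here is ENSMUSG00000025408.15 (chromosome 10 from 127290774 to 127296288), and an overlapping short record, ENSMUSG00000116429.1, took at most 0.71 estimated reads in any library. Normalised counts were 10.8, 33.0 and 13.6 in controls and 15.8, 36.6 and 13.7 in mutants of batch 2, and 28.7, 17.5 and 14.9 in controls and 23.6 and 22.8 in mutants of batch 1. The groups overlapped, and the spread among embryos of one group was wider than the difference of the means, which were 22.5 ± 8.97 in mutants (SD, n = 5) and 19.7 ± 8.99 in controls (SD, n = 6). Its log2 fold change was 0.22 ± 0.50 (SE; adjusted p = 0.933, DESeq2), with an interval from 0.595-fold to 2.29-fold. Without mutant replicate 2 the estimate changed sign, to -0.06.

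*Atf3* (ENSMUSG00000026628.13, chromosome 1 from 191170296 to 191218039), a factor of immediate stress responses that ATF4 activates, was found in 1 library only. Mutant replicate 1 held 20 of its reads, or 15.1 normalised counts, and the other 10 embryos held 0. In libraries of this size a count of 0 allows up to 0.363 to 0.849 CPM, depending on the library (3 reads of its total, counting error only). It was not tested, and nothing can be said of a group difference.

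Among the genes of feedback and growth control, *Sesn2* (ENSMUSG00000028893.8, chromosome 4 from 132492032 to 132510501) had the smallest p. Its protein, sestrin 2, senses leucine and restrains the growth kinase mTORC1. In batch 2 it had 128, 156 and 101 normalised counts in controls and 335, 252 and 274 in mutants, so every mutant was above every control. In batch 1 the controls had 512, 438 and 165 and the mutants 475 and 506, which overlapped. It was the one member of 8 whose groups did not overlap in batch 2, beside 13.0% of all genes tested, and over all 11 embryos 0 of 8 members separated the groups, beside 0.919%. The log2 fold change was 0.83 ± 0.28 (SE), an interval of 1.21-fold to 2.6-fold, with an unadjusted p of 0.00337 and an adjusted p of 0.122 (DESeq2). In batch 2 alone it was 1.17 (adjusted p = 0.115) and in batch 1 alone 0.41 (adjusted p = 1.0). Leaving out control replicate 4, the control with the most *Sesn2*, gave 0.98 with an adjusted p of 0.0332, and this was the only one of 21 alternatives under which the gene passed.

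*Trib3* (ENSMUSG00000032715.9, chromosome 2 from 152337422 to 152344032), a pseudokinase that binds ATF4 and dampens it, had estimates of opposite sign in the batches, neither of them past the test. In batch 2 it had 20.7, 36.5 and 9.69 normalised counts in controls and 47.5, 25.9 and 28.3 in mutants. In batch 1 it had 107, 118 and 76.9 in controls and 65.5 and 59.0 in mutants, all mutants below all controls. The combined log2 fold change was 0.03 ± 0.40 (SE; adjusted p = 0.992, DESeq2), with -0.69 in batch 1 alone (adjusted p = 0.93) and 0.63 in batch 2 alone (adjusted p = 0.998). The test of that difference, a batch by group interaction, gave -1.35 ± 0.77 (SE) with an unadjusted p of 0.078 and an adjusted p of 1.0 (DESeq2). Of the 8 members 0 were called for the interaction, beside 0.0573% of all genes, and 0 had an unadjusted p under 0.05.

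*Ppp1r15a* (ENSMUSG00000040435.12, chromosome 7 from 45522916 to 45526268) encodes GADD34, which brings a phosphatase to eIF2α and so ends the response. Normalised counts were 233, 97.3 and 97.9 in controls and 61.1, 108 and 61.4 in mutants of batch 2, and 345, 397 and 298 in controls and 406 and 269 in mutants of batch 1. Every value of batch 1 was above every value of batch 2, and within batch 2 control replicate 1 was highest. The groups overlapped in each batch, and the log2 fold change was -0.50 ± 0.30 (SE; adjusted p = 0.544, DESeq2), an interval of 0.469-fold to 1.07-fold. It was -0.03 in batch 1 alone, -0.90 in batch 2 alone and -0.71 to -0.18 when embryos were left out, with -0.18 without control replicate 1.

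*Chac1* (ENSMUSG00000027313.3, chromosome 2 from 119351229 to 119354381), whose enzyme degrades glutathione, is a known target of ATF4. It was seen in 4 of 5 libraries of batch 1 and in 1 of 6 of batch 2. The controls of batch 1 held 18, 6.73 and 12.4 normalised counts and the mutants 0 and 7.25, while in batch 2 a single embryo, mutant replicate 3, held 5.85. With a mean of 6.20 in controls and 2.62 in mutants it was below the limit for testing.

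Among the enzymes, *Asns* (ENSMUSG00000029752.12, chromosome 6 from 7675169 to 7693254), asparagine synthetase, is the classic target through which the amino acid response element was mapped. It had 67.9, 26.1 and 1.94 normalised counts in controls and 4.53, 13.7 and 41.9 in mutants of batch 2, and 28.7, 20.2 and 25.6 in controls and 12.3 and 15.5 in mutants of batch 1. The mutants of batch 1 lay below their controls, and in batch 2 the values of each group spread so widely that the groups overlapped. The log2 fold change was -0.75 ± 0.70 (SE; adjusted p = 0.753, DESeq2), an interval of 0.230-fold to 1.53-fold, and without 1 embryo at a time it ranged from -1.31 to -0.15.

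*Psat1* (ENSMUSG00000024640.9, chromosome 19 from 15904678 to 15947337) had 4337 normalised counts at the lowest, 6597 at the median and 8729 at the highest in controls, and 7000, 5791, 4825, 7507 and 6604 in mutant replicates 1 to 5. Every mutant lay within the range of the controls. The log2 fold change was -0.02 ± 0.19 (SE; adjusted p = 0.987, DESeq2), an interval of 0.763-fold to 1.27-fold, the narrowest of the 8 but for that of *Atf4*.

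*Phgdh* (ENSMUSG00000053398.11, chromosome 3 from 98313170 to 98339990) had 1766, 2896 and 2379 normalised counts in controls and 2516, 2701 and 4106 in mutants of batch 2. In batch 1 it had 5667, 6589 and 4535 in controls and 4770 and 7700 in mutants. The groups overlapped in both batches, with a log2 fold change of 0.30 ± 0.20 (SE; adjusted p = 0.615, DESeq2) and an interval of 0.931-fold to 1.62-fold. Some of its reads also matched other records, and the posterior standard deviation RSEM gave its counts was at most 0.275% of the count.

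More members were called between the batches than between the genotypes. With group as a covariate, 4 of 8 members were called between batch 1 and batch 2, beside 27.9% of all genes tested. All 4 were higher in batch 1, as were 1466 of the 2911 genes called, or 14.0% of all genes tested. *Ppp1r15a* was 343 on average in batch 1 and 110 in batch 2, a log2 fold change of 1.66 ± 0.30 (SE; adjusted p = 1.4e-06, DESeq2). *Trib3* averaged 85.5 and 28.1 normalised counts (1.62 ± 0.40 SE, adjusted p = 0.000701, DESeq2). *Sesn2* averaged 419 and 208 (1.20 ± 0.28 SE, adjusted p = 0.000302, DESeq2), and *Phgdh* 5852 and 2727 (1.14 ± 0.20 SE, adjusted p = 7.44e-07, DESeq2). For *Trib3*, *Ppp1r15a* and *Phgdh* every embryo of batch 1 was above every embryo of batch 2, 3 of 8 members beside 13.0% of all genes tested. edgeR also called 4 members, beside 22.4% of all genes.

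Among control embryos alone, these 4 genes were called, beside 14.5% of all genes, with log2 fold changes of 2.22 ± 0.58 (SE) for *Trib3*, 1.54 ± 0.42 for *Sesn2*, 1.27 ± 0.39 for *Ppp1r15a* and 1.25 ± 0.26 for *Phgdh*. The adjusted p from DESeq2 was 0.00271, 0.00418, 0.0144 and 0.000107 in that order. The other 4 members were not called in either fit. Over all 11 embryos, *Atf4* differed by -0.08 ± 0.14 (SE), an interval of 0.787-fold to 1.14-fold, *Psat1* by 0.24 ± 0.19, *Ddit3* by 0.11 ± 0.50 and *Asns* by -0.43 ± 0.70. In controls alone these estimates were -0.06 ± 0.24, 0.22 ± 0.28, 0.12 ± 0.85 and -0.37 ± 0.92. The batches differed in embryos, handling and cycles of PCR together, and these cannot be told apart. Oviduct markers, mostly *Ovgp1*, also moved with the batch, at a summed 0.29 to 1.02 TPM in batch 1 and 1.59 to 33.6 TPM in batch 2, and their part in these differences was not tested.

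**Figure D3:**
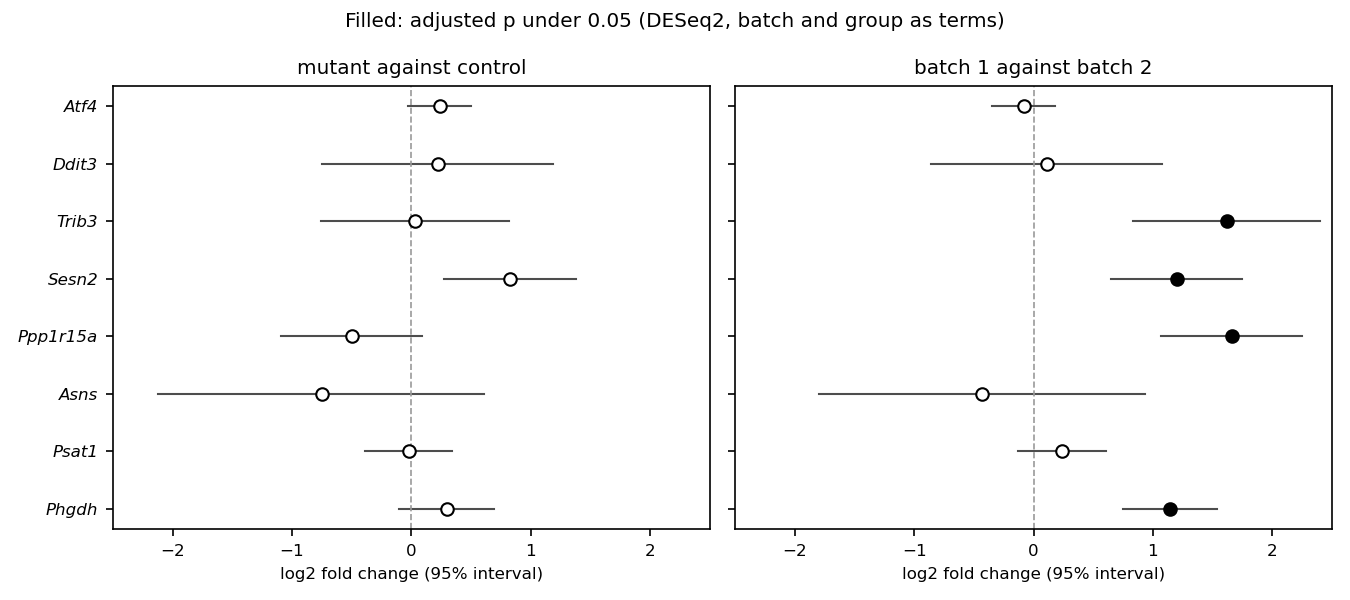
Log2 fold change (horizontal axis) with its 95% interval for the 8 genes tested, for mutant against control (left) and batch 1 against batch 2 (right), filled where the adjusted p is under 0.05. No point is filled on the left, and *Trib3*, *Sesn2*, *Ppp1r15a* and *Phgdh* are filled on the right.

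The extreme values of the 8 tested members were spread unevenly over the embryos. Control replicate 1 held the lowest value of 4 of the 8 tested members (*Atf4*, *Ddit3*, *Psat1* and *Phgdh*) and the highest of *Asns*, and control replicate 3 the lowest of 3. No embryo was highest in more than 1 member. Whether members varied together was not tested.

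A further 115 genes in 7 lists around this pathway were examined, of which 90 were tested and 1 was called between mutants and controls (1.11%, beside 1.45% of all genes). The called gene was *Syvn1*, from the list of genes of the ATF6 and XBP1 arms, the branches of the unfolded protein response that do not act through eIF2. It encodes HRD1, a ubiquitin ligase of protein degradation at the endoplasmic reticulum. The gene is in the study's list of genes bound by PRDM10 in embryonic stem cells, and binding in embryos was not measured. That list held 7 of the 115 genes (*Fos*, *Lars*, *Syvn1*, *Fosl1*, *Atg12*, *Junb* and *Atf7*). Of these, *Fos* and *Fosl1* were too low to test and 4 (all but *Syvn1*) were tested and not called. The share of all genes in that list was not computed, so neither 7 of 115 nor 0 of 10 members can be read as many or few. *Syvn1* had 165, 64.3 and 89.1 normalised counts in controls and 18.1, 42.7 and 39.0 in mutants of batch 2. In batch 1 it had 44.3, 40.4 and 60.3 in controls and 13.3 and 8.28 in mutants. Mutants lay below the controls of their batch throughout. Non-overlap in either direction was seen for 23.6% of all genes tested in batch 1 and for 13.0% in batch 2. Over all embryos 4 of 5 mutants lay below every control in *Syvn1*. The log2 fold change was -1.87 ± 0.39 (SE; adjusted p = 0.000447, DESeq2; 0.881% of all genes were called lower). It did not pass in edgeR (adjusted p = 0.069), nor on log2(TPM + 1) in limma (adjusted p = 0.228), nor in batch 1 alone (-2.16, adjusted p = 0.192) or batch 2 alone (-1.68, adjusted p = 0.249). *Sel1l*, which encodes the partner of HRD1, had a log2 fold change of -0.92 ± 0.43 (SE; adjusted p = 0.379, DESeq2). Of the 21 genes of this list, all tested, 16 had lower and 5 higher estimates in mutants, with a median log2 fold change of -0.18, and 5 had an unadjusted p under 0.05. Over all genes tested, 49.8% had a higher estimate and 11.9% such a p. The highest estimates were 0.55 for *Sdf2l1* and 0.50 for *Atf6b*.

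No gene was called among 17 tested genes of eIF2 and its control, and 4 had an unadjusted p under 0.05, beside 11.9% of all genes. *Impact*, whose protein inhibits the amino acid sensor kinase GCN2, came closest, at 213 to 867 normalised counts in controls and 120 to 285 in mutants, with a log2 fold change of -1.05 ± 0.31 (SE; adjusted p = 0.0539, DESeq2). It failed in 16 of 21 alternatives, over which the estimate ranged from -1.42 to -0.59, and passed in 5. It was -0.75 (adjusted p = 0.217) without control replicate 1, the adjusted p was 0.245 in edgeR and in batch 1 alone it was 0.947. In batch 2 alone it passed (-1.42, adjusted p = 0.0453). It also passed when mutant replicate 4 was left out (-1.40, adjusted p = 0.000595), when control replicate 3 was (-1.15, adjusted p = 0.0383) and when control replicate 4 was (-1.17, adjusted p = 0.0234). The gene of GCN2 itself, *Eif2ak4*, was too low to test, at means of 3.71 normalised counts in controls and 4.15 in mutants. *Denr*, a factor of reinitiation after upstream reading frames, had -0.39 ± 0.15 (SE; adjusted p = 0.206, DESeq2). *Eif2b5*, the catalytic subunit of the exchange factor eIF2B, had 0.51 ± 0.17 (SE; adjusted p = 0.0914), or 0.60 without control replicate 3, where it passed (adjusted p = 0.0383). *Eif2d*, an alternative initiation factor, had 0.50 ± 0.22 (SE; adjusted p = 0.318).

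The 13 tested tRNA synthetases and tRNA exporter gave 11 estimates above 0, beside 49.8% of all genes, with a median log2 fold change of 0.22 and none called. The extremes were *Cars* (0.58), *Lars* (0.50), *Eprs* (-0.11) and *Iars* (-0.14), and 1 gene had an unadjusted p under 0.05. Of 11 tested genes of amino acid and one-carbon synthesis, 7 were above and 4 below 0, with a median of 0.21 and none called, from *Gpt2* (-0.69) and *Shmt2* (-0.54) to *Bcat1* (0.38) and *Mthfd1l* (0.50). Of 12 amino acid transporters, 6 were tested and none called, with a median of -0.37. The lowest were *Slc7a11* (-1.30), the cystine transporter, and *Slc38a2* (-0.94), both with embryos at 0 in each group, and the highest *Slc3a2* (0.26) and *Slc1a5* (0.14). In none of these lists did a gene pass the test between genotypes.

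Of 18 bZIP transcription factors, which include the dimer partners of ATF4, 13 were tested and none called. Estimates ran from *Cebpb* (-0.60) and *Cebpa* (-0.50) to *Junb* (0.93) and *Jun* (1.02), all from genes with wide spread among embryos. In batch 1 alone *Jun* was -0.04 and *Junb* -0.53. Of 18 further stress, growth and autophagy targets, 9 were tested and none called, with *Pmaip1* (0.93) and *Cdkn1a* (0.72) highest and *Txnip* (-0.65) and *Atg12* (-0.33) lowest. *Pmaip1* was -0.22 in batch 2 alone. *Cdkn1a*, which encodes the cell cycle inhibitor p21, had an adjusted p of 0.278 (DESeq2), and 0.0272 with a log2 fold change of 1.01 when control replicate 1 was left out. In both lists, as in the 10 genes, positive and negative estimates were mixed, with medians near 0.

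**Figure D4:**
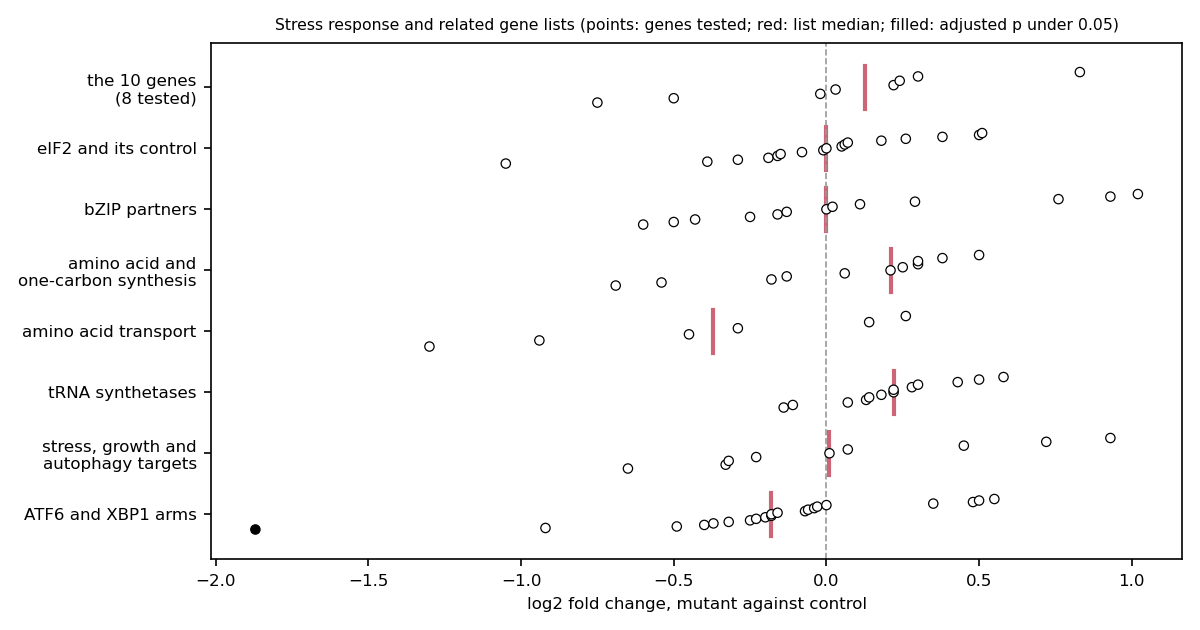
Log2 fold change of mutant against control (horizontal axis) for each gene tested in the 10 members and the 7 surrounding lists, with list medians in red. The single filled point, *Syvn1* at -1.87, is the one gene called, and list medians lie between -0.37 and 0.22.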

How the data were processed

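RNA from single embryos was amplified with Smart-seq2 and sequenced as single-end reads. The authors aligned reads with STAR (2.6.0c) to GRCm38.p6 and estimated per-gene values with RSEM. The deposited tables hold expected counts (not normalised), TPM and, in other columns, the effective length and the posterior standard deviation of each count. The authors' own table of fold changes and p-values was not used.

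Groups and batches came from the labels. Expected counts were rounded and fitted in DESeq2 (1.42.0, R 4.3.3) with batch and group as terms, size factors by median of ratios, log2 fold changes without shrinkage, and p adjusted over all genes by Benjamini and Hochberg. A gene was called at an adjusted p below 0.05 and a mean normalised count above 10, the authors' tool and thresholds; a batch term is not given in the sources used here. Intervals are Wald intervals at 95%. Embryos are the replicates (6 controls, 5 mutants), and no pair of the 55 agreed within sampling noise. Alternatives used edgeR (4.0.16), limma (3.58.1) on log2(TPM + 1) and log2(TPM + 0.1), other factors and filters, an effective-length offset, a model lacking batch, fits within a single batch, and fits that left out 1 embryo. The tests were checked on simulated counts, where DESeq2 recovered more of the changed genes than edgeR and made a larger share of false calls, above its nominal rate.

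The 10 members and the lists were chosen with earlier results of these data known. The text names the 10 members, *Prdm10*, *Eif3b*, each called gene of a list and the 2 highest and 2 lowest estimates per pathway list. It also names *Eif2ak4*, some markers and the listed genes bound by PRDM10. Promoters are from RefSeq, and gene positions from a GENCODE annotation of GRCm38. Without molecular identifiers, limits on a count of 0 cover counting error only.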

Additional observations from a re-analysis of the deposited data

Results flagged for a closer look

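Each of the 10 genes and *Syvn1* was examined for an embryo far from the rest of its group, in 22 sets of normalised counts, and 1 set held such an embryo. Chance marks about 1 set in 20 of continuous values, a rate that does not hold for a set of zeros with 1 other value. *Atf3* stood at 15.1 normalised counts in mutant replicate 1 and at 0 in the other 4 mutants. In the same embryo *Trib3* (47.5 normalised counts) and *Sesn2* (335) were the highest of batch 2, *Ppp1r15a* (61.1) was the lowest of all embryos, *Asns* was at 4.53 and *Chac1* at 0. *Atf4* had 1086, *Ddit3* 15.8, *Psat1* 7000 and *Phgdh* 2516. No effect of genotype on a member differed between the batches past the threshold.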

How the results depend on the processing

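No member was called under any alternative except without control replicate 4, so that the count called between mutants and controls ranged from 0 to 1 when embryos were left out. Between the batches 4 members were called in every alternative run except a mean count above 100, which left 3 because *Trib3* was below it, and for the interaction 0 were called throughout. The count of other pathway genes called, 1 in the text, was 0 with edgeR, with limma on log2(TPM + 1) or log2(TPM + 0.1), with a mean count above 100, without a batch term and in batch 1 alone. In batch 2 alone it was 1, *Impact* in place of *Syvn1*. It was 2 with at least 10 counts in 5 libraries (*Impact* joined), and 1 to 3 when embryos were left out. *Syvn1* kept its direction in all 21 alternatives and passed in 15. Several estimates that were not called changed sign. *Trib3* was -0.45 without a batch term and -0.69 in batch 1 alone, and ranged from -0.24 to 0.23 without 1 embryo. *Psat1* was 0.02 in limma at either pseudocount and 0.01 with the length offset or in batch 1 alone, and -0.12 to 0.09 without 1 embryo. *Ddit3* ranged from -0.06 to 0.52. Between the batches, *Atf4* was 0.16 in limma at either pseudocount and *Asns* 0.11 with log2(TPM + 1) and 0.45 with log2(TPM + 0.1). Without 1 embryo, *Ddit3* ranged from -0.06 to 0.39 and *Asns* from -0.73 to 0.16. Among other genes between genotypes, *Cebpb* was 0.03 with log2(TPM + 0.1) and -0.90 to 0.36 without 1 embryo. In batch 1 alone *Jun* was -0.04, *Junb* -0.53, *Slc1a5* -0.53 and *Eprs* 0.09, and in batch 2 alone *Pmaip1* was -0.22. On log2(TPM + 1), *Gpt2* was 0.04, *Slc7a11* 0.01 and *Slc1a5* -0.32. *Slc1a5* was -0.40 with log2(TPM + 0.1), -0.21 with the length offset, -0.51 without a batch term and -0.19 to 0.60 without 1 embryo, and *Gpt2* was 0.27 with the length offset. The cause of these changes was not tested. No paired analysis was possible because replicate numbers follow the order of the samples and nothing in the labels ties a control to a mutant embryo. With 5 and 6 embryos and wide spread, low genes such as *Asns* and *Ddit3* could differ by 2-fold without being called.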
